A study of Mus musculus with 2 samples.

Results

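The miRNA genes described here, which lie inside the mouse Hox clusters, are Mir10a, Mir10b, Mir196a-1, Mir196a-2, Mir196b and Mir615. They were chosen by name, through the Ensembl identifier of each symbol, and make up 6 of the 1973 miRNA genes counted in microRNA-seq of embryonic liver. The tissue came from B6NCrl embryos at 12.5 days, with no mutation or treatment named in the labels and with males and females pooled. There were 2 biological replicates of this single group, replicate 1 with the livers of 120 embryos and replicate 2 with those of 88. One donor identifier stands in the labels of both pools, and part of the spread between them may therefore be technical. The libraries held 11057424 reads in replicate 1 and 11013976 in replicate 2, of which 3447858 and 3534816 were sense counts on miRNA genes. A level is given as CPM, the gene's sense counts for every 1000000 sense counts of its library. Reads need not capture different mature miRNAs alike. Orders, sums and ratios across genes therefore compare counts, not molecules, and no SD or interval covers this. Mir122, the miRNA typical of hepatocytes, ranked 2 of all listed genes at 54020 ± 9747 CPM (SD, n = 2), so the defining marker of the labelled tissue was present.

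Hox genes are homeobox genes that give cells their position along the head to tail axis of the embryo. Within each of the clusters A, B, C and D, genes of low paralog number are expressed furthest forward and genes of high paralog number are restricted to posterior tissue. The miRNA genes among them are read from the same strand as their Hox neighbours and can share their transcripts. miR-196 is known to direct cleavage of Hoxb8 mRNA in mouse embryos. miR-10 represses hoxb1a and hoxb3a in zebrafish, and miR-196b is known from mouse blood progenitors, where it is active together with Hoxa9. Day 12.5 liver is a site of blood formation, and a bulk library of it holds blood, endothelial, mesenchymal and hepatoblast RNA together.

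The mature sequences decide what these counts can tell apart, so those of the 5p arms, and both arms of Mir615, are shown as RefSeq gives them (GRCm38.p6), with the seed (bases 2 to 8) in capitals.
miR-10a-5p: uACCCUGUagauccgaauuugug
miR-10b-5p: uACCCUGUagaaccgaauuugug
miR-196a-5p: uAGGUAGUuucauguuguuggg
miR-196b-5p: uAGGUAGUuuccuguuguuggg
miR-615-5p: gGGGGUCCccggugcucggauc
miR-615-3p: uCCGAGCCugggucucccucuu
miR-10a-5p and miR-10b-5p share the seed ACCCUGU and differ by the single substitution U12A, counted from the 5′ end with the base of miR-10a first. miR-196a-5p and miR-196b-5p share the seed AGGUAGU and differ by A12C, with the base of miR-196a first. No other mature miRNA of the RefSeq table has either seed at bases 2 to 8. Neither arm of Mir615 shares its seed with another entry.

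The level of the Hox cluster miRNAs was carried mostly by Mir10a. Together the 6 genes held 1.27% of the sense counts in replicate 1 and 1.39% in replicate 2, or 1.33% ± 0.0857 (SD, n = 2). The miR-10 genes held 1.13% ± 0.0698 and the miR-196 genes 0.166% ± 0.0129. Of the 6 genes, 5 reached 10 CPM in both libraries, while 15.3% of all listed genes did so. On the opposite strand none of the 6 had a count, and a count of 0 is compatible with a level of up to 0.870 CPM in replicate 1 and 0.849 CPM in replicate 2. These limits are a fixed 3 counts in each library, not exact Poisson limits. The counts carry no molecular identifiers, so these limits and all intervals cover counting error only.

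Mir10a (ENSMUSG00000065519.1) had 31138 counts in replicate 1 and 34843 in replicate 2. Its level was 9031 CPM (95% exact Poisson interval 8931 to 9132) in replicate 1 and 9857 CPM (9754 to 9961) in replicate 2, a mean of 9444 ± 584 CPM (SD, n = 2). Mir10b (ENSMUSG00000065500.2), its paralogue with the same seed, had 1729 CPM in replicate 1 and 1890 CPM in replicate 2, a mean of 1810 ± 114 CPM. Mir10a exceeded Mir10b by far more than the spread of either gene, and the size of the gap hardly varied between the libraries. The ratio of Mir10a to Mir10b in CPM was 5.223 in replicate 1 and 5.215 in replicate 2. Their 5p miRNAs differ by a single base, and whether reads were counted on the wrong gene of the pair was not checked. Taken per 100 bases of annotated hairpin the ratio was 3.23, because the annotated Mir10a gene is 110 bases long and that of Mir10b 68, although both 5p miRNAs are 23 bases long.

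Mir196b (ENSMUSG00000065443.1) stood just below Mir10b. It had 1548 CPM (1507 to 1591) in replicate 1 and 1717 CPM (1675 to 1761) in replicate 2, a mean of 1633 ± 119 CPM (SD, n = 2). Within each library Mir10b was the higher of the pair, with a ratio to Mir196b of 1.12 in replicate 1 and of 1.10 in replicate 2, and their counting intervals did not overlap. Across libraries the ranges nearly met, since Mir196b in replicate 2 came within counting error of Mir10b in replicate 1. Mir615 (ENSMUSG00000076010.1), carried by an intron of Hoxc5, had 356 CPM in replicate 1 and 400 CPM in replicate 2, a mean of 378 ± 31.0 CPM. It lay 4.32 ± 0.0387 times below Mir196b, a gap that was almost the same in both libraries.

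**Figure D1:**
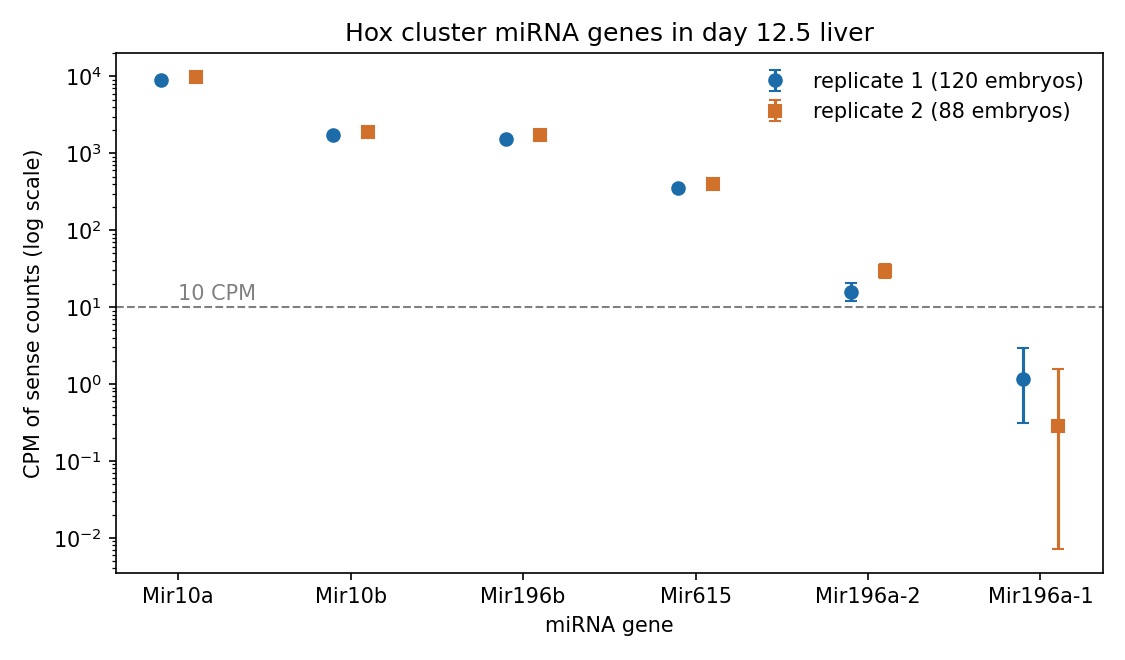
CPM of sense counts on a log axis for each of the 6 genes, as circles for replicate 1 and squares for replicate 2, with 95% exact Poisson intervals of the count. Mir10a stands highest in both libraries, Mir10b and Mir196b lie close together, and Mir196a-1 is the only gene below the dashed line at 10 CPM.

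The 2 genes for miR-196a had the lowest counts. Mir196a-2 (ENSMUSG00000065488.1) had 55 counts in replicate 1 and 105 in replicate 2, or 16.0 CPM (12.0 to 20.8) and 29.7 CPM (24.3 to 36.0), a mean of 22.8 ± 9.72 CPM (SD, n = 2). Mir196a-1 (ENSMUSG00000065546.1) had 4 counts in replicate 1 and 1 in replicate 2, or 1.16 CPM (0.316 to 2.97) and 0.283 CPM (0.00716 to 1.58). Mir196a-2 was the higher of this pair in both libraries, with intervals that did not overlap. The ratio of Mir196b to both Mir196a genes together was poorly fixed, at 90.5 in replicate 1 and 57.3 in replicate 2.

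These low counts cannot be read as the level of miR-196a-5p, whose sequence is encoded at both places. Each table gives reads aligned to several places on a line of their own, from which it is inferred, but not stated in the sources used here, that they were left out of the gene counts. The hairpins are shown with the 5p miRNA in capitals, to let the shared stretch be seen.
Mir196a-1: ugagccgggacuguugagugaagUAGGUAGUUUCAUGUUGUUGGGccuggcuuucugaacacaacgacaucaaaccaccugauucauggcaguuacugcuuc
Mir196a-2: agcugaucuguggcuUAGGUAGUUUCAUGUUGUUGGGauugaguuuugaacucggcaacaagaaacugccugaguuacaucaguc
Mir196b: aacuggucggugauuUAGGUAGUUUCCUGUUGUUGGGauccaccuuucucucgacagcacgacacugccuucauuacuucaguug
The longest run common to the Mir196a-1 and Mir196a-2 hairpins is 22 bases and is exactly miR-196a-5p, ending where the capitals end on either side. Their 3p miRNAs differ at 17 of 22 positions. The longest run that Mir196b shares with Mir196a-2 is 12 bases, and with Mir196a-1 it is 11. For Mir10a and Mir10b the longest common run is 15 bases, which is shorter than a mature miRNA. These runs are exact matches only. miR-10a-5p and miR-10b-5p differ by a single base, as do miR-196a-5p and miR-196b-5p, and the mismatches allowed in alignment are not known. Whether reads of such a pair were counted on the other gene, or as aligned to several places, was not checked. The tables count reads per hairpin, not per arm, so which arm the Mir196a-2 counts came from is not known. In all, 3180324 reads of replicate 1 (28.8%) and 3427344 of replicate 2 (31.1%) aligned to several places, and the share of miR-196a-5p among them was not measured here.

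Set against the Hox map, the highest level lay at paralog position 4 of cluster B, and the fewest counts were listed at position 9 of the same cluster. Positions here are from GENCODE M21 on mm10, with each miRNA placed between the stop codons of its nearest Hox genes. Mir10a lies at chr11:96317165-96317274 on the plus strand, between Hoxb5 and Hoxb4 and within no other gene. Mir10b lies at chr2:74726070-74726137 on the plus strand, between Hoxd8 and Hoxd4, in an intron of transcripts of Hoxd4 and Hoxd3. These genes hold equivalent places, with 3051 bases from Mir10a to the stop codon of Hoxb4 and 2447 bases from Mir10b to that of Hoxd4.

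The miR-196 genes all lie next to a paralog 9 gene, on its upstream side. Mir196b lies at chr6:52230081-52230165 on the minus strand, between Hoxa10 and Hoxa9, and overlaps an exon of Hoxa9. Mir196a-2 lies at chr15:102973350-102973434 on the plus strand, between Hoxc10 and Hoxc9, in an intron of a long transcript of Hoxc5. Mir196a-1 lies at chr11:96265164-96265265 on the plus strand, between Hoxb13 and Hoxb9 and within no other gene. Mir615 lies at chr15:103014910-103015001 on the plus strand, between Hoxc6 and Hoxc5, in the Hoxc5 intron.

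By level, the order was Mir10a (B, position 4), Mir10b (D, 4), Mir196b (A, 9), Mir615 (C, 5), Mir196a-2 (C, 9) and Mir196a-1 (B, 9), in both libraries and also per 100 bases of hairpin. Neighbours in this order differed by more than their SDs, but the counts of Mir196a-2 and Mir196a-1 may not be levels of their shared miRNA. Unequal capture of different miRNAs was not measured, so this is an order of counts. The order did not follow paralog number alone, since Mir196b at position 9 stood above Mir615 at position 5. By cluster, the summed levels were 9445 ± 583 CPM for B, 1810 ± 114 CPM for D, 1633 ± 119 CPM for A and 401 ± 40.7 CPM for C (SD, n = 2). Within cluster B nearly all of the counted level came from the position 4 gene, and within cluster C from Mir615. The sums of B and C may lack reads of miR-196a-5p, which both clusters encode, so these parts hold for the counts only. The miR-10 genes at position 4 together exceeded the miR-196 genes at position 9 by 6.80 ± 0.106 times, but the position 9 sum may lack miR-196a-5p reads, if reads aligned to several places were left out as inferred. A single tissue was sampled, so level can be set beside gene order but not beside axial position in the embryo.

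**Figure D2:**
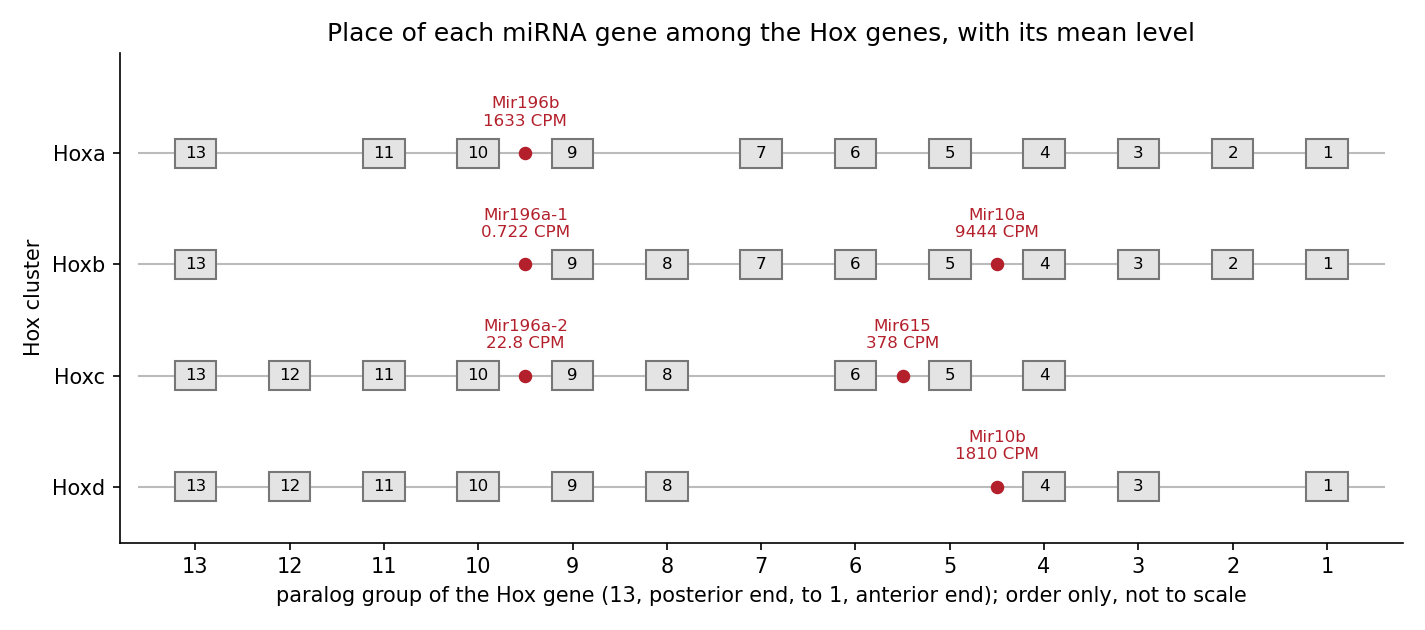
The Hox genes of clusters A to D as boxes numbered by paralog group, from 13 at the posterior end to 1, with each miRNA gene as a red dot above which its mean CPM is printed. The axis gives order only. The position 4 genes Mir10a and Mir10b carry 9444 and 1810 CPM, and of the position 9 genes only Mir196b exceeds 100 CPM.

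Among all listed genes Mir10a ranked 30, Mir10b 82, Mir196b 86, Mir615 143, Mir196a-2 263 and Mir196a-1 532 by mean CPM. Mir10a stood between Mir92-1, of the miR-17-92 cluster, at 9526 ± 830 CPM and Mir15a at 9124 ± 13.2 CPM (SD, n = 2), and differed from neither by more than its own SD. Mir92-1 shares a mature sequence with another gene, so its count may leave out reads as for Mir196a. Mir10b stood between Mir181c at 1914 ± 192 CPM and Mir192, known from liver and gut epithelium, at 1801 ± 34.1 CPM. Mir196b stood between Mir107 at 1641 ± 13.2 CPM and Mir210, the hypoxia-responsive miRNA, at 1541 ± 145 CPM. Mir615 lay between Mir5099 at 393 ± 30.1 CPM and Mir302d at 377 ± 15.2 CPM, and Mir196a-2 between Mir8112 and Mir6539 at 23.2 ± 2.03 and 22.7 ± 2.83 CPM. With only 2 libraries, no gene can be named for a pattern like that of a member.

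**Figure D3:**
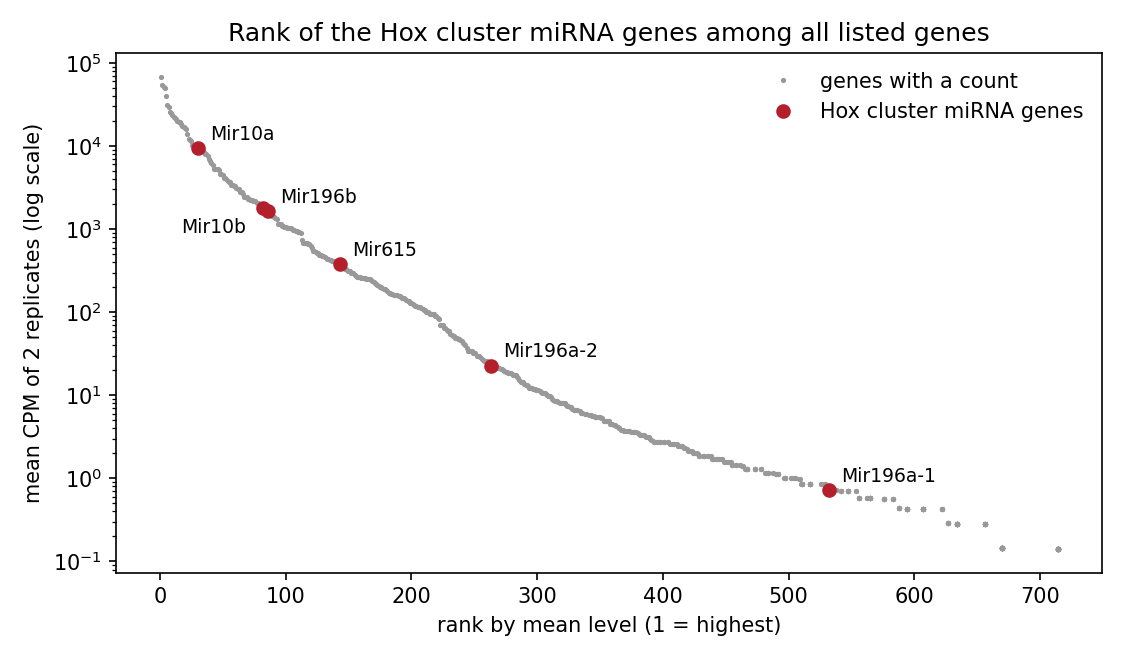
Mean CPM of the 2 replicates on a log axis against rank for every gene with a count, with the 6 Hox cluster miRNA genes in red. Mir10a sits at rank 30 and Mir10b and Mir196b sit together at ranks 82 and 86, while Mir196a-1 lies in the tail at rank 532.

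The miR-10 genes have relatives outside the Hox clusters, Mir99a, Mir99b and Mir100, whose sequences are shown for the stretch they share, with the seed again in capitals.
miR-99a-5p: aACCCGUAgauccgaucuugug
miR-99b-5p: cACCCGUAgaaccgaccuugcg
miR-100-5p: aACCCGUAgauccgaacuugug
Their seed, ACCCGUA, is not that of miR-10. The longest run in common is GUAGAUCCGAA between miR-10a-5p and miR-100-5p, at bases 7 to 17 of miR-10a-5p. The miR-10 genes summed to 11254 ± 698 CPM and these 3 relatives to 42003 ± 5093 CPM (SD, n = 2), so the relatives stood 3.73 ± 0.222 times above. Mir99a, Mir99b and Mir100 had 25265 ± 4689, 11456 ± 436 and 5281 ± 840 CPM, which places Mir10a between Mir99b and Mir100.

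All 5 Hox cluster miRNA genes with at least 10 counts were lower in replicate 1 than in replicate 2, and 4 of them by nearly the same factor. In this comparison of 2 libraries, not of conditions, 22.4% of the 464 tested genes were lower in replicate 1 and 17.9% higher, so that 40.3% differed. The test was the exact binomial test, two-sided, with library sizes scaled by TMM and p-values adjusted by Benjamini-Hochberg over all tested genes. It passes smaller ratios where counts are higher, as for Mir126a with a log2 ratio of -0.05. These shares mix genes of all levels, and the share among genes as abundant as the members was not computed. Of the members' neighbours in level, Mir92-1, Mir15a, Mir181c, Mir107, Mir210 and Mir5099 also passed, in either direction. Mir192, Mir302d, Mir8112 and Mir6539 did not. The log2 ratio of replicate 1 over replicate 2 was -0.19 (95% interval -0.21 to -0.17) for Mir10a, with an adjusted p of 3.4e-62 by the exact test. Mir10b had -0.19 (-0.24 to -0.14), Mir196b -0.21 (-0.27 to -0.16) and Mir615 -0.23 (-0.34 to -0.12), with adjusted p of at most 0.000153 by the exact test. The intervals of these 4 genes, which lie in 4 different clusters on 4 chromosomes, overlapped. A ratio of this size was not particular to them. Outside the Hox clusters, for example, Mir18 had -0.19, Mir130b -0.21 and Mir106b -0.23. With TMM the median of the 5 tested Hox cluster genes was -0.21, beside -0.03 over all tested genes. The latter was 0 with DESeq2 size factors and 0.04 with total sense counts. The 5 genes were counted in the same 2 libraries and are not replicates of a shift. All 5 were also lower in replicate 1 under the other scalings, where the share of all tested genes lower in replicate 1 was 18.8% with DESeq2 size factors, 20.7% with all reads and 16.6% with total sense counts. The split of all genes that differed depended on the scaling, with 87 lower and 88 higher with DESeq2 size factors and 77 lower and 101 higher with total sense counts, beside 104 lower and 83 higher with TMM.

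Mir196a-2 had the widest difference of the 5, with a log2 ratio of -0.95 (-1.46 to -0.48) and an adjusted p of 0.000171 by the exact binomial test. Its interval lies apart from those of the other 4 genes. Mir196a-1, with 5 counts in all, was not tested. The exact binomial test allows for counting error only, and 61.9% of tested genes had a larger log2 ratio in size than Mir10a. That share takes in genes with far fewer counts, whose ratios vary more by counting error. Mir92-1 and Mir15a, the neighbours of Mir10a in level, had 0.12 and -0.06, both smaller in size than its ratio. When a coefficient of variation of 0.1 between biological samples was assumed, 2.59% of tested genes passed edgeR's negative binomial exact test, and none of the 5 did. With the coefficient estimated from both libraries, 0.162, 1.08% passed, again without any of the 5. That estimate takes the differences between these same 2 libraries as the variation, so it cannot decide whether the 5 differ. At 0.1 Mir196a-2 came closest, with an adjusted p of 0.0677, and the other 4 had adjusted p from 0.750 to 0.809 (edgeR).

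**Figure D4:**
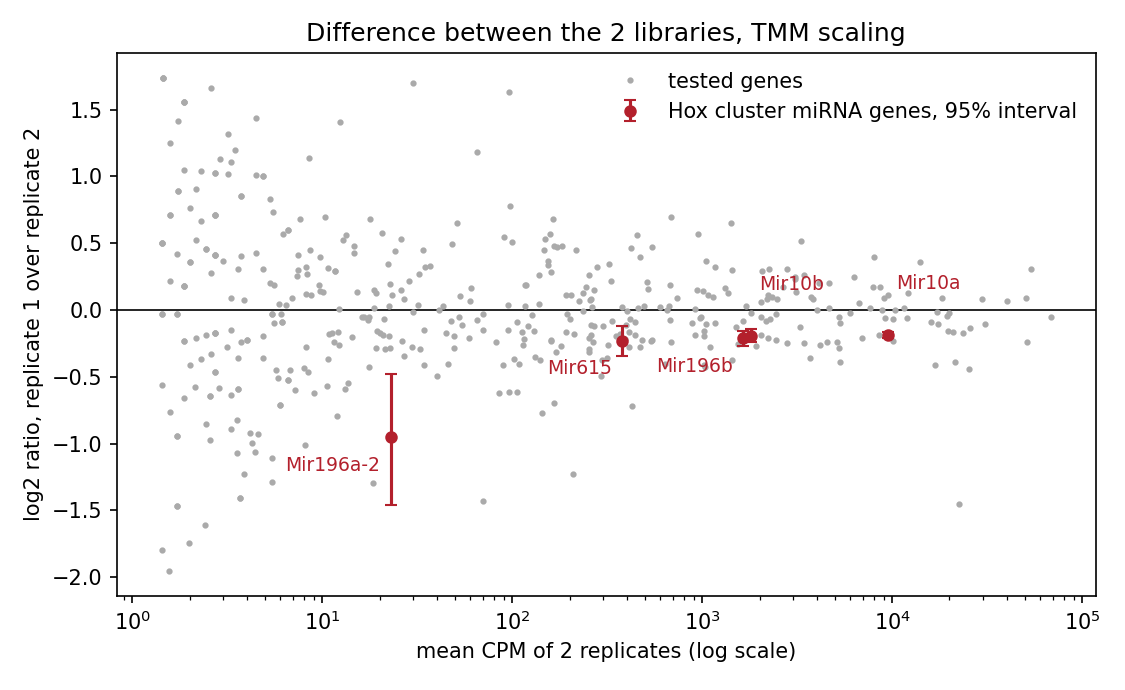
The log2 ratio of replicate 1 over replicate 2 (TMM scaling) against mean CPM on a log axis, for the 464 tested genes in grey and the 5 tested Hox cluster miRNA genes in red with 95% intervals. Mir10a, Mir10b, Mir196b and Mir615 lie between -0.19 and -0.23, inside the grey cloud, and Mir196a-2 lies at -0.95.

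Marker miRNAs of other cell types also differed between the libraries by the exact binomial test, and each count below stands beside the 22.4% lower and 17.9% higher in replicate 1 over all tested genes. Those shares mix genes of all levels, and abundant markers pass at smaller ratios than scarce ones. With the coefficient of variation of 0.1, 4 of these markers passed edgeR's exact test, namely Mir451a, Mir206, Mir208b and Mir200c, and with the estimated 0.162 the first 3 did. Of the 6 mesenchyme and smooth muscle genes, 5 were lower in replicate 1 by the exact binomial test, with Mir143, a smooth muscle miRNA, at a log2 ratio of -0.16 and Mir214 at -0.24. The list summed to 23825 CPM in replicate 1 and 25822 CPM in replicate 2. Its widest ratio, 1.00 for Mir199a-1, did not pass, and 4 rather than 5 of the list were lower with DESeq2 size factors, total sense counts or no filter. In this list Mir199a-1, Mir199a-2 and Mir199b have mature sequences that other genes also encode. Their counts, and the sum, may leave out reads as for Mir196a. The endothelial list had 1 measured gene, Mir126a, at 68816 CPM in replicate 1 and 68165 CPM in replicate 2, a log2 ratio of -0.05 that turned to 0.01 when scaled to total sense counts, both past the threshold. Of the 3 erythroid genes, 2 were lower in replicate 1 and 1 higher, with Mir451a, which acts in red cell maturation, at -1.45, and the list summed to 16926 and 37430 CPM in replicates 1 and 2. Of the 3 miR-10 relatives, 2 were lower in replicate 1, Mir99a with -0.44 and Mir100 with -0.39, while Mir99b had 0.01 and passed as higher only with DESeq2 size factors, all reads or total sense counts.

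Skeletal muscle and heart genes were lower in replicate 1 in 3 of 5 tested cases, led in size by Mir208b at -1.43, and the list summed to 441 CPM in replicate 1 and 695 CPM in replicate 2. Its most abundant member was Mir499 at 266 ± 22.7 CPM (SD, n = 2), and Mir1a-1, Mir133a-1 and Mir133a-2 were listed at 0 in both libraries. miR-1a and miR-133a are each encoded by more than one gene, so these zeros, and the sum, may leave out reads as for Mir196a. The epithelial miR-200 genes went the other way, with 5 of 5 higher in replicate 1, led by Mir429 at 1408 ± 484 CPM and with the widest ratio, 0.69, for Mir200c. They summed to 3409 CPM in replicate 1 and 2116 CPM in replicate 2. Mir122 was also higher in replicate 1, at 0.31, and the hepatocyte list, with 1 of 3 higher, summed to 63680 and 49802 CPM in replicates 1 and 2. In that list Mir194-2 shares a mature sequence with another gene, so its count may leave out reads too.

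The neural list had 1 of 5 tested genes higher in replicate 1, Mir137 (2 of 5 with total sense counts, 0 of 5 with no filter), with Mir128-1 as its most abundant gene at 118 ± 14.4 CPM (SD, n = 2), and summed to 224 and 192 CPM in replicates 1 and 2. Its widest ratio, 0.50 for Mir9-3, did not pass, and Mir124a-1, Mir124a-2, Mir124a-3 and Mir9-2 were listed at 0 in both libraries. The miR-124 genes share a mature sequence, as do the miR-9 genes, so the same limit holds for these zeros and this sum. It holds also for Mir128-1, Mir128-2 and Mir138-1, which share a mature sequence with another gene. In the pancreas and gut list 2 of 4 were higher in replicate 1, with Mir375 at 2194 ± 153 CPM and a ratio of 0.08 and Mir216b at 1.44, and it summed to 2324 and 2099 CPM in replicates 1 and 2. The part of any of these cell types in the difference of the Hox cluster miRNAs was not tested. In bulk liver, fewer cells of a type and less RNA per cell cannot be told apart.

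**Figure D5:**
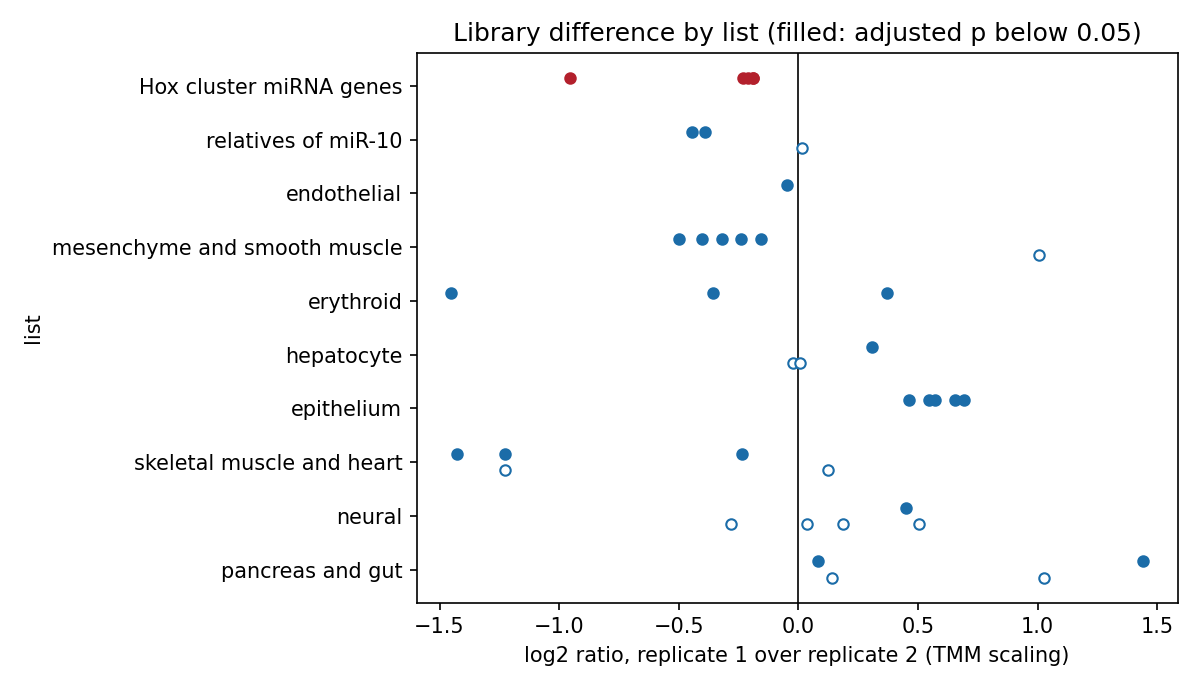
The log2 ratio of replicate 1 over replicate 2 (TMM scaling) for the tested genes of each list, with filled dots for adjusted p below 0.05 (exact binomial test) and open dots for the rest. The 5 Hox cluster miRNA genes and 5 of 6 mesenchyme genes lie left of 0, and the 5 epithelial genes lie right of it.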

How the data were processed

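Per the file headers, the deposited raw counts per gene came from reads aligned to mm10 and counted by the authors against GENCODE M4. The aligner and counter remain unnamed, being not given in the sources used here. Reads not counted on a gene in the sense column were 68.8% and 67.9% of all reads in replicates 1 and 2. They were unmapped (29.4% and 25.8%), aligned to several places (28.8% and 31.1%) or of no feature (10.6% and 11.0%). These reads stayed out of library sizes and tests, save where levels or tests were scaled to all reads. Names and positions came from GENCODE M21 on the same assembly, where 1894 of 1973 identifiers were found, Mir10b and Mir196a-2 in another version. Sequences came from RefSeq (GRCm38.p6), where all 6 genes matched. CPM used the sense column. Uniqueness of mature sequences was searched among RefSeq hairpins, not in the genome. Library differences were tested by the exact binomial test (R 4.3.3) with TMM scaling (edgeR 4.0.16) where both libraries together held 10 counts or more, with Benjamini-Hochberg adjustment at 0.05, and log2 ratios with 0.5 counts added. The test was first tried on simulated Poisson counts. Those vary by counting error only, so the trial does not cover other variation between libraries. Alternatives included DESeq2 1.42.0 size factors. Intervals are 95%, from SciPy 1.17.1 and R. The members and lists were chosen with earlier results of these data known. The genes named were the 6 members, their neighbours in level, the miR-10 relatives, and the most abundant and most different gene of each marker list, with further list genes as examples chosen after their values were seen. The replicates come from separate pools, and p-values measure only the difference between these libraries.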

Additional observations from a re-analysis of the deposited data

How the results depend on the processing

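No paired analysis was possible because there is a single group. With counts of both strands, the levels were 8542 CPM for Mir10a, 1637 for Mir10b, 1477 for Mir196b and 342 for Mir615, and the sums were 10178 for the miR-10 genes, 1498 for the miR-196 genes and 12018 for all 6, because the denominator grows and these genes have no opposite-strand counts. Per 1000000 of all reads, the levels were 2990 for Mir10a, 573 for Mir10b, 517 for Mir196b, 119.6 for Mir615 and 7.25 for Mir196a-2, and the sums 3563, 525 and 4207. In CPM per 100 bases of hairpin, the levels were 8586 for Mir10a, 2661 for Mir10b, 1921 for Mir196b and 411 for Mir615, and the ratio of Mir10a to Mir10b was 3.23. Leaving out 1 library gave Mir196b over both Mir196a genes as 57.3 without replicate 1 and 90.5 without replicate 2, and moved Mir196a-1 by over 1.5 times, to 0.283 and 1.16 CPM. With 1 CPM as the threshold 5 genes were detected, with 100 CPM 4, and with both strands 5. The 5 library differences kept their direction and stayed past the threshold of the exact binomial test under DESeq2 size factors, total counts, all reads, both strands and no filter, with log2 ratios no closer to 0 than -0.13. In edgeR's negative binomial exact test they did not pass, with an assumed coefficient of variation of 0.1 (log2 ratios -0.19, -0.19, -0.96, -0.21 and -0.23 for Mir10a, Mir10b, Mir196a-2, Mir196b and Mir615) or with the estimate of 0.162 (the same ratios). With 0.1, 12 genes differed, 6 lower and 6 higher in replicate 1, and with the estimate 5 did, 3 lower and 2 higher, against 187 by the binomial test (104 lower and 83 higher). Without genes that share a mature sequence in the RefSeq table, the ranks were 29 for Mir10a, 80 for Mir10b, 84 for Mir196b and 137 for Mir615. Depth limits Mir196a-1, with 5 counts in all.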

Other observations

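Of the 87 listed genes with a mature sequence that another RefSeq miRNA gene also encodes, 34 (39.1%) reached 10 CPM in both libraries, against 242 (29.2%) of the 829 listed genes with RefSeq entries and no mature sequence shared within that table, which is not complete. Mir196a-1, at 0.722 ± 0.620 CPM (SD, n = 2), and Mir196a-2 belong to the first set. The 7 letters AGGUAGU, the seed of miR-196 at bases 2 to 8, also stand 1 base further in, at bases 3 to 9, in 11 of the 1738 mature entries of the RefSeq table, and 10 of these are let-7 miRNAs or miR-98. The letters of the miR-10 seed stand at bases 3 to 9 in 1 entry, of Mir7023. A further miRNA gene of GENCODE M21, Gm44463, lies within the Hoxd cluster and was not analysed here.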
